A study of Mus musculus with 12 samples.

Results

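The 36 genes described here encode parts of the lysosome and of the autophagy machinery, and they were found in the count files by their gene symbols, 36 of 52535 gene entries. They comprise 16 lysosomal genes, 18 autophagy genes and the transcription factor genes Tfeb and Tfe3. RNA was sequenced from mouse T-cell acute lymphoblastic leukemia (T-ALL) cells carrying both an Akt2 and a Dlx5 transgene, and the Lck promoter drives both transgenes in the lymphoma mice of the study, with the activated form MyrAkt2. Each of the lines 240, 242 and 352 came from a different mouse, and each gave 1 library after treatment with β-Catenin/Tcf Inhibitor II, which interferes with the pairing of β-catenin and Tcf/Lef factors, and 1 control library, so that each group holds 3 libraries and the controls carry both transgenes too. No line without the transgenes was included, and no source used here gives the age of the mice.

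The lysosome is the acidic compartment in which cells break down proteins, lipids and sugars taken up from outside or delivered from inside. In macroautophagy a membrane sac closes around cytoplasm, marked cargo or organelles, its LC3 and GABARAP proteins bind cargo receptors, and the finished autophagosome fuses with the lysosome. Tfeb and Tfe3 bind E-box-like promoter elements of many lysosomal genes, and developing T cells use autophagy to clear mitochondria and to survive.

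Most T-cell markers were well represented. Summed over 12 markers, they stood at 4779, 1941 and 2034 CPM (counts scaled to library size) in inhibitor-treated libraries of lines 240, 242 and 352. In their controls the sum was 4588, 4080 and 2659 CPM. Cd3e, Cd8a and Lck had counts in all 6 libraries, while Cd2 had 0 to 22 and Cd5 0 to 14 in a library. Markers at 0 numbered 2 in the treated library of line 242, 1 in its control and 1 in the treated library of line 352. Lysosomal genes are also abundant in macrophages. Of 12 macrophage and myeloid markers, 6 to 9 were at 0 in inhibitor-treated libraries and 9 to 11 in controls, Lyz2, C1qa, C1qb, C1qc and Mpeg1 were at 0 in all 6 libraries, and nearly all of the list's counts came from Itgam and, in line 352, Cd163, except in the treated library of line 242, where Itgam gave 22 of 34 counts and Mrc1 4, Adgre1 3, Cd14 2, Cd163 2 and Csf1r 1. The list's sum was 10.4, 56.2 and 46.1 CPM in inhibitor-treated libraries, against 10.4, 17.9 and 53.6 CPM in controls. The treated library of line 242 stood apart from the other 5. It held 604984 counts, against 3160824 to 13766638 in the others, and 11.8% of them came from mitochondrially encoded genes, against 1.84% to 3.10%. It had a count for 21241 genes, against 14175 in its control and 15150 to 21049 in the others. Genes with only 1 or 2 counts numbered 6721 in it, against 2871 to 5738 in the others. Its B-cell markers summed to 74.4 CPM, against 0 to 3.16 CPM elsewhere, with 43 of the 45 counts from Pax5. Its stroma and epithelium markers summed to 69.4 CPM, against 42.6 CPM in its control, but the control of line 352 had 72.8 CPM. Pecam1 gave 142 of the 143 counts of this list in the control of line 242. In the treated library it gave 10 of 42, with 14 from Col1a1 and 11 from Epcam. Because of this library, the members were tested both over all 3 lines and over lines 240 and 352 alone. Leaving out line 242 was decided with earlier results of these data known. Where a member is given below only for lines 240 and 352, it did not pass in the 3 lines either, where the fitted log2 fold changes of the members ran from -0.91 for Tfeb to 0.99 for Sqstm1 with wider intervals. The part of library quality or of other cell types in the results was not tested, and in bulk RNA a smaller share of cells of one type cannot be told apart from less RNA per cell.

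Transcripts of every member were counted in at least 1 library, over a wide range of levels. Ctss, the cathepsin that trims the invariant chain in antigen-presenting cells, had 0, 1 and 4 counts in inhibitor-treated libraries and 0, 0 and 1 in controls, and it was the 1 member that did not pass the filter on low counts, leaving 35 tested. Per kilobase of annotated exon, Psap had the highest level, with 241 CPM per kb on average over the 6 libraries. Psap encodes prosaposin, the precursor of the saposins that help hydrolases reach membrane lipids. It was followed by Sqstm1 with 70.9 CPM per kb, Lamp1 with 59.2, Ctsz with 49.2 and Gabarap with 48.6 CPM per kb. The order of Sqstm1, Lamp1, Ctsz and Gabarap changes between libraries. The mean of Sqstm1 was raised by the treated library of line 242, at 566 CPM, against 131 to 223 CPM in the others. Per kilobase, Sqstm1 lay below Lamp1 in every control. At the low end, besides Ctss, Tfeb had 0.769 CPM per kb, Gabarapl1 2.36 and Wipi1 2.58 CPM per kb, and Tfe3 stood at 2.91 CPM per kb, above Tfeb. The lysosomal cysteine protease gene Ctsb and the aspartic protease gene Ctsd were close, at 31.8 and 28.5 CPM per kb.

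**Figure D1:**
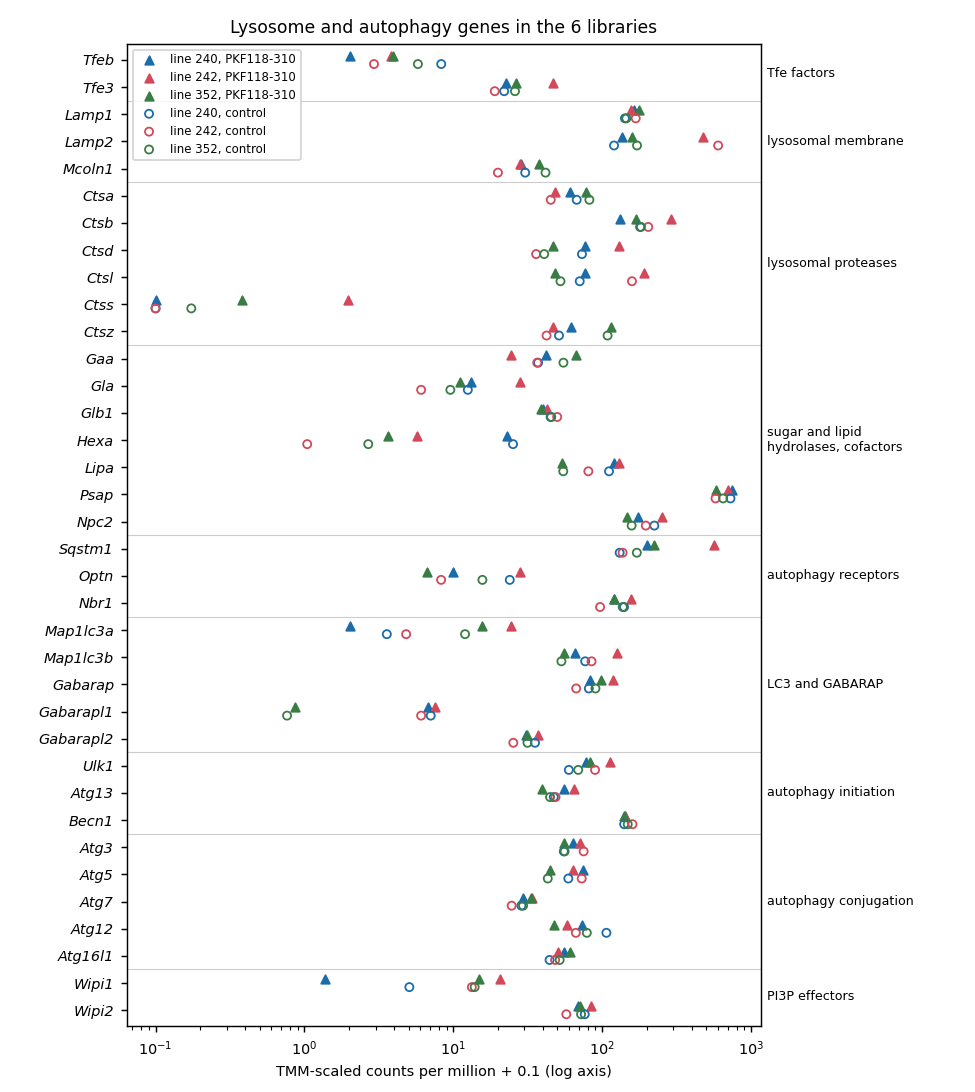
Level of each member in each library, as TMM-scaled CPM plus 0.1 on a log axis, with triangles for inhibitor-treated libraries, open circles for controls, and color for the line. Most triangles and circles of a gene lie close together, Psap is highest at 576 to 739.6 CPM, and Ctss lies at or near 0.

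In the fit of lines 240 and 352 the log2 fold changes of the tested lysosomal members lay between -0.27 and 0.24. None of them passed, while 3 autophagy genes did. Within these single lines the lysosomal changes ran wider, from -0.45 for Ctsb in line 240 to 0.42 for Hexa in line 352. With line 242 included no gene passed in edgeR's quasi-likelihood test, and the lysosomal members ran up to 0.71 for Gla, with 8 of 15 intervals within 1.5-fold. Over the 3 lines, none of the 35 tested members passed an adjusted p of 0.05 in edgeR's quasi-likelihood test, while 2 (Sqstm1 and Atg12) had an unadjusted p below 0.05. The quasi-likelihood test called 0% of all 10331 genes, with a smallest adjusted p of 0.614, so it separated no gene, member or not. DESeq2 and edgeR's likelihood ratio test also called 0 members over the 3 lines, and limma voom with sample weights called 2, Optn and Atg12, both lower, where it called 4.59% of all genes lower. The members' median log2 fold change was 0.08, against 0.00 over all genes. Over lines 240 and 352 alone, Sqstm1 was higher and Optn and Atg12 were lower after the inhibitor, 1 and 2 of 35 members, where 5.01% of the 11760 genes tested were higher and 5.92% lower. The share of members called is thus near that of all genes. DESeq2 called none of the 3 in these lines (adjusted p = 0.101 for Sqstm1, 0.109 for Optn and 0.0673 for Atg12), nor did the fit without the line as a block, and lane 2 alone did not call Optn (adjusted p = 0.0562). The median log2 fold change there was 0.02 for the members and -0.01 for all genes, and the median size of change, regardless of sign, was 0.13 for the members and 0.23 for all genes. The intervals bound the changes of the rest. In lines 240 and 352, the 95% interval of the log2 fold change lay within 2-fold in either direction for 32 of 35 members and within 1.5-fold for 26, and in the 3 lines for 25 and 12. Each line has 1 library per group, so the p-values rest on how far the change differs between lines, together with spread borrowed from other genes. In lines 240 and 352 most of the degrees of freedom (median 12.7) are borrowed in this way.

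**Figure D2:**
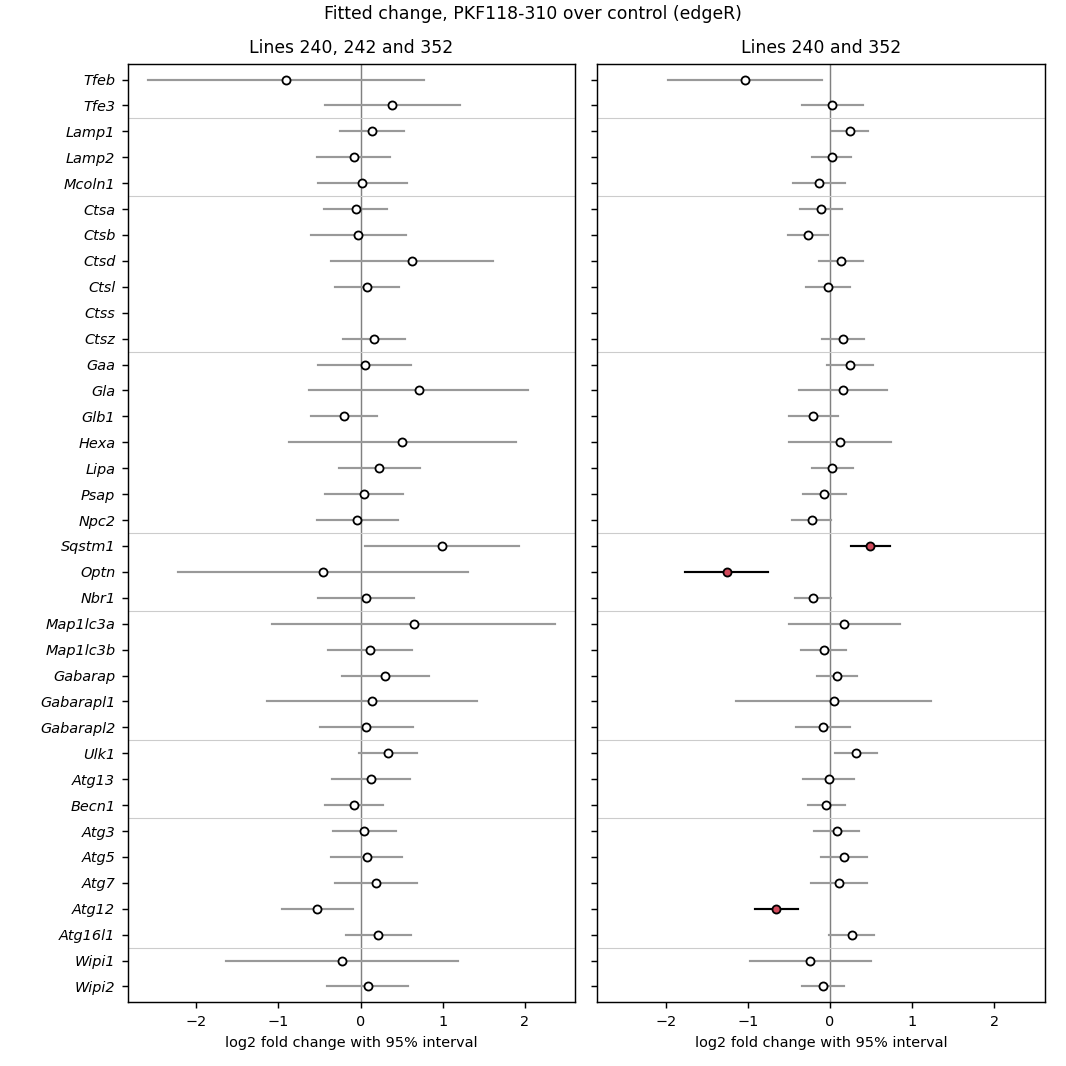
Fitted log2 fold change of each tested member, inhibitor over control, with its 95% interval, for all 3 lines at left and for lines 240 and 352 at right, with red points for an adjusted p below 0.05. On the left no member passes, and on the right Sqstm1 passes at 0.49, Optn at -1.26 and Atg12 at -0.65.

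Sqstm1 encodes p62, which binds ubiquitinated cargo and LC3 and which is also induced by Nrf2 in oxidative stress. It lies on chromosome 11 from 50199366 to 50210827 (mm10, minus strand). Sqstm1 had 201, 566 and 223 CPM in the inhibitor-treated libraries of lines 240, 242 and 352, against 131, 137 and 170.5 CPM in their controls. All treated libraries were above all controls. Members whose groups did not overlap were 2 of 36 (Sqstm1 and the lower Glb1), against 6.17% of all genes tested. Its counts were 630, 305 and 3187 after the inhibitor and 527, 435 and 2311 in controls, so that it was well covered even in the shallow treated library of line 242. In lines 240 and 352 the log2 fold change was 0.49 ± 0.11 (SE; 95% interval 0.25 to 0.72; adjusted p = 0.0142). Over the 3 lines it was 0.99 ± 0.37 (SE; adjusted p = 0.842), with changes of 0.62, 2.05 and 0.38 in lines 240, 242 and 352. The gene shares its position with Mrnip on the opposite strand, which had 334 counts in all, against 7395 for Sqstm1, and no source used here gives the strand setting of the counting.

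Optn encodes optineurin, another ubiquitin-binding receptor, known for delivering damaged mitochondria to autophagosomes, and it lies on chromosome 2 from 5020642 to 5064051 (minus strand). Optn had 9.89, 27.8 and 6.56 CPM in the inhibitor-treated libraries of lines 240, 242 and 352, against 23.8, 8.18 and 15.6 CPM in their controls. It was below its control in lines 240 and 352 and above it in line 242, where the treated value rests on 15 counts, and the groups overlapped. In lines 240 and 352 the log2 fold change was -1.26 ± 0.23 (SE; 95% interval -1.76 to -0.75; adjusted p = 0.00564), and over the 3 lines -0.45 ± 0.69 (SE; adjusted p = 0.930). The third receptor, Nbr1, which also binds ubiquitin and LC3, had 121, 156 and 120 CPM after the inhibitor and 139.9, 96.5 and 137 CPM in controls. Its log2 fold change in lines 240 and 352 was -0.21 ± 0.10 (SE; adjusted p = 0.225).

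Atg12 encodes the ubiquitin-like protein that is joined to Atg5 and, with Atg16l1, directs the attachment of lipid to LC3. Atg12 had 73.4, 57.5 and 47.1 CPM in the inhibitor-treated libraries of lines 240, 242 and 352, against 106, 66.4 and 78.6 CPM in their controls. Each treated library was below the control of its line, and the groups overlapped because the lines start from different levels. The log2 fold change was -0.65 ± 0.12 (SE; 95% interval -0.91 to -0.40; adjusted p = 0.00499) in lines 240 and 352 and -0.52 ± 0.17 (SE; adjusted p = 0.842) over the 3 lines. The genes of its partners did not pass. Atg5 stood at 0.17 and Atg16l1 at 0.27 on the log2 scale in lines 240 and 352, and Atg7, the activating enzyme shared by both conjugation reactions, at 0.11 and Atg3, the enzyme that hands LC3 to lipid, at 0.08. Atg12 was thus the 1 of 5 conjugation genes with a negative fitted change in either fit.

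**Figure D3:**
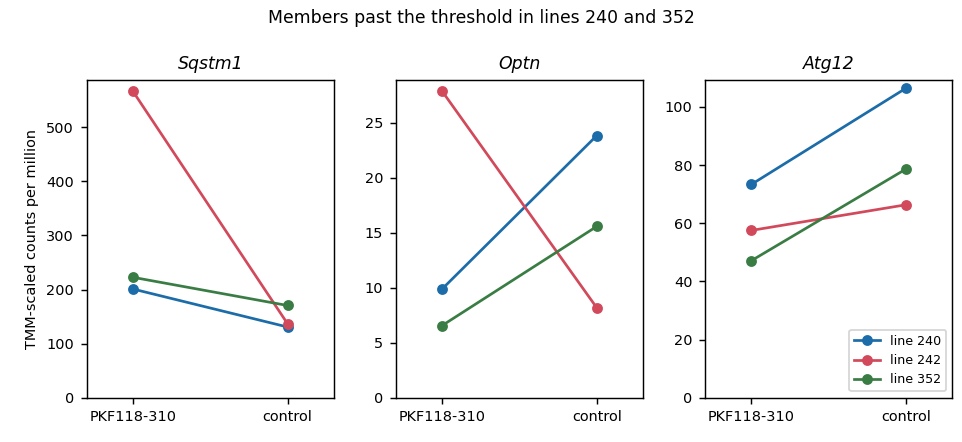
TMM-scaled CPM of Sqstm1, Optn and Atg12 in the inhibitor-treated library and the control library of each line, joined by a line in the color of the cell line. Sqstm1 is higher after the inhibitor in all 3 lines (566 against 137 CPM in line 242), Atg12 is lower in all 3, and Optn is lower in lines 240 and 352 and higher in line 242 (27.8 against 8.18 CPM).

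Neither transcription factor gene passed in either fit. Tfe3 had 22.3, 46.4 and 26.4 CPM in inhibitor-treated libraries of lines 240, 242 and 352, against 21.8, 18.9 and 25.8 CPM in controls. The groups overlapped, and the one clear difference was in line 242, with 25 counts in the treated library. The log2 fold change of Tfe3 was 0.03 ± 0.17 (SE; adjusted p = 0.942) in lines 240 and 352, with a 95% interval of -0.34 to 0.40, and 0.38 ± 0.32 (SE; adjusted p = 0.852) in the 3 lines. Tfeb was counted at 1.91, 3.71 and 3.84 CPM after the inhibitor, against 8.19, 2.83 and 5.68 CPM in controls. It was lower in lines 240 and 352 and higher in line 242, and 6 and 2 counts stand behind the treated values of lines 240 and 242. Its log2 fold change in lines 240 and 352, -1.04 ± 0.43 (SE), did not pass (adjusted p = 0.154), and its 95% interval was wide, -1.98 to -0.10.

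Of the 3 lysosomal membrane genes none passed. Lamp1 and Lamp2 encode the heavily glycosylated proteins that line the lysosomal membrane. Lamp2 had 136, 477 and 159 CPM in inhibitor-treated libraries of lines 240, 242 and 352, against 119.8, 599.7 and 171 CPM in controls. Line 242 was the highest in both groups, and the log2 fold change was 0.02 ± 0.11 (SE; 95% interval -0.22 to 0.26) in lines 240 and 352 and -0.08 ± 0.17 (SE) over the 3 lines. Lamp1, on the same scale, stood at 0.24 ± 0.10 (SE; adjusted p = 0.162) in lines 240 and 352. Mcoln1, the calcium channel TRPML1 of the lysosomal membrane, stood at -0.13 ± 0.15 (SE).

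None of the 5 tested protease genes passed either. The cysteine protease gene Ctsb had 131, 291 and 168 CPM in inhibitor-treated libraries of lines 240, 242 and 352, against 179, 203 and 182 CPM in controls. Treated values were below control in lines 240 and 352 and above in line 242, and the log2 fold change in lines 240 and 352 was -0.27 ± 0.11 (SE; adjusted p = 0.154). Ctsb overlaps Fdft1 (squalene synthase) on the opposite strand, which had 2575 counts in all, against 6806 for Ctsb, so its value is uncertain. Ctsd, encoding the main aspartic protease of the lysosome, had 75.9, 129.9 and 46.7 CPM after the inhibitor, against 72.9, 35.8 and 40.6 CPM in controls. It was higher in each line, by 0.06, 1.85 and 0.20 on the log2 scale, and the groups overlapped. The fitted change of Ctsd was 0.13 ± 0.12 (SE; adjusted p = 0.556) without line 242 and 0.63 ± 0.39 (SE; adjusted p = 0.843) with it. Ctsa, the carboxypeptidase that also protects β-galactosidase, stood at -0.11 in lines 240 and 352, Ctsl at -0.02 and Ctsz at 0.16.

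The fitted log2 fold changes of the 7 genes for sugar and lipid hydrolases and their cofactors lay between -0.23 and 0.24 in lines 240 and 352. Within a line, Npc2 reached -0.36 in line 240 and Hexa 0.42 in line 352. Psap had 739.6, 694 and 580.2 CPM in inhibitor-treated libraries of lines 240, 242 and 352, against 726, 576 and 648 CPM in controls. The groups overlapped, and the log2 fold change of -0.07 ± 0.12 (SE) had a 95% interval of -0.33 to 0.19 in lines 240 and 352. At either end of the 7 were Npc2, which carries cholesterol out of the lysosome's interior, at -0.23 ± 0.11 (SE; adjusted p = 0.215), and Gaa, acid α-glucosidase, at 0.24 ± 0.13 (SE; adjusted p = 0.267). Lipa, the acid lipase that frees cholesterol from its esters, stood at 0.03 ± 0.11 (SE). Glb1, β-galactosidase, was slightly below control in every line, at 40.2, 42.7 and 38.8 CPM after the inhibitor and 44.9, 49.7 and 45.3 CPM in controls. Its groups did not overlap, but the fitted change, -0.20 ± 0.14 (SE; adjusted p = 0.383), did not pass, and Tmppe overlaps the gene on the same strand. Gla, α-galactosidase A, and Hexa, the α subunit of β-hexosaminidase, stood at 0.15 and 0.12 in lines 240 and 352 and at 0.71 and 0.51 in the 3 lines. Their changes of 2.16 and 2.23 in line 242 rest on 15 and 3 counts in the treated library, against 19 and 3 in its deeper control.

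Among the LC3 and GABARAP genes, whose proteins are the lipid-anchored coat of the autophagosome, none of 5 passed. Gabarap had 82.9, 119 and 98.1 CPM in inhibitor-treated libraries of lines 240, 242 and 352, against 81.1, 66.7 and 89.9 CPM in controls. It was higher in each line, the groups overlapped, and the log2 fold change was 0.08 ± 0.11 (SE; adjusted p = 0.698) in lines 240 and 352 and 0.30 ± 0.21 (SE; adjusted p = 0.843) in the 3 lines. Map1lc3b, the form of LC3 most often followed as a marker, stood at -0.08 ± 0.13 (SE) in lines 240 and 352, and Gabarapl2 at -0.09 ± 0.15 (SE). Map1lc3a and Gabarapl1 were low, with 6 to 222 and 4 to 28 counts in a library, and their intervals reached beyond 1.5-fold in both fits.

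The initiation genes and the effectors of phosphatidylinositol 3-phosphate (PI3P), the lipid that marks the growing sac, also stayed below the threshold. Ulk1, the kinase that starts autophagy, had 78.1, 113 and 83 CPM in inhibitor-treated libraries of lines 240, 242 and 352, against 59.5, 89.3 and 68.8 CPM in controls. It was higher in each line by a like amount, 0.39, 0.34 and 0.27 on the log2 scale, although the groups overlapped. The log2 fold change of Ulk1 was 0.32 ± 0.12 (SE; 95% interval 0.06 to 0.57; adjusted p = 0.108) in lines 240 and 352 and 0.33 ± 0.14 (SE; adjusted p = 0.842) in the 3 lines. Becn1, a subunit of the kinase complex that makes PI3P, had 142, 141 and 139 CPM after the inhibitor, against 140.2, 159 and 148 CPM in controls. Of the members given here by library, none varied so little among the 6 libraries, and its 95% interval in lines 240 and 352 was -0.27 to 0.18. Atg13, the partner of Ulk1, stood at -0.02 ± 0.14 (SE). Wipi2, which binds PI3P and recruits Atg16l1, had 68.2, 83.5 and 70.3 CPM after the inhibitor and 76.2, 57.2 and 71.9 CPM in controls, with overlapping groups and a log2 fold change of -0.09 ± 0.12 (SE). Wipi1 stood at -0.24 ± 0.34 (SE), with 4 to 210 counts in a library.

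The lysosomal and the autophagy genes were also compared as sets. In lines 240 and 352, 0 of 15 tested lysosomal genes and 3 of 18 autophagy genes passed, with median log2 fold changes of 0.02 and 0.01, against -0.01 for all genes. Of all genes 5.01% were higher and 5.92% lower, and with so few members neither count can be told apart from that share. In the 3 lines the medians were 0.05 and 0.10, against 0.00, with 10 of 15 and 14 of 18 members above 0, where 50.6% of all genes were. Within lines 240, 242 and 352 the lysosomal median was 0.06, 0.27 and -0.07 and the autophagy median -0.02, 0.49 and 0.05. Both sets had their highest median in line 242, whose treated library is the shallow one, and the part of that library's quality was not tested. Summed over the members, lysosomal transcripts stood at 1885, 2544 and 1728 CPM in inhibitor-treated libraries of lines 240, 242 and 352, against 1912, 2217 and 1794 CPM in controls. Autophagy transcripts stood at 1158, 1761 and 1137 CPM, against 1119, 1083 and 1116 CPM.

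The ratio of the lysosomal to the autophagy sum was 1.63, 1.44 and 1.52 in inhibitor-treated libraries, against 1.71, 2.05 and 1.61 in controls. It was lower after the inhibitor in each line, with log2 changes of -0.07, -0.50 and -0.08 (mean change -0.22 ± 0.25, SD, n = 3), and the groups just overlapped. Sqstm1 carried most of this. With Sqstm1 left out of the sum, a step chosen after its values were seen, the ratio was 1.97, 2.13 and 1.89 in inhibitor-treated libraries, against 1.93, 2.34 and 1.90 in controls, higher in line 240, and the mean log2 change was -0.04.

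**Figure D4:**
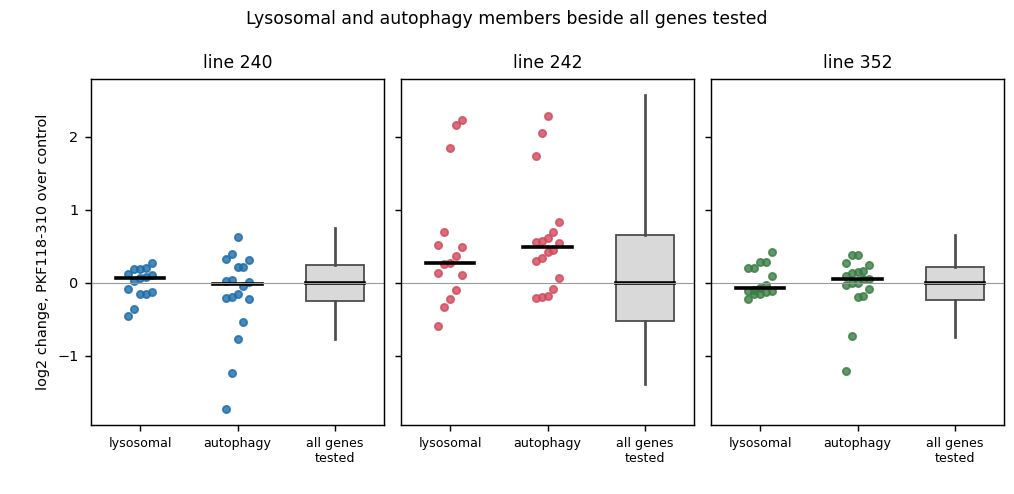
Log2 change after the inhibitor within each line for the 15 tested lysosomal and 18 autophagy members (points, with a bar at the median) beside all 10331 genes tested (box at the quartiles, whiskers at the 5th and 95th percentiles). The members center near 0 in lines 240 and 352 and higher in line 242, with medians of 0.27 and 0.49, where the box of all genes is also widest.

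The spread of the members differed by line in the same way as that of all genes. The SD of the log2 change over the 35 tested members was 0.54, 0.78 and 0.32 in lines 240, 242 and 352, and over all genes tested 0.51, 1.33 and 0.47. Changes beyond 2-fold were seen for 3 members in line 240 (Tfeb, Wipi1 and Optn, all lower), 7 in line 242 (Tfe3, Ctsd, Gla, Hexa, Sqstm1, Optn and Map1lc3a, all higher) and 1 in line 352 (Optn, lower), where 5.35%, 28.0% and 4.34% of all genes changed as much. Besides Sqstm1, with 305 counts, and Ctsd, with 70, the 7 members of line 242 had 3 to 25 counts in its treated library. Over the 3 lines, 9 members were higher in each line (Tfe3, Ctsd, Ctsz, Gla, Sqstm1, Gabarap, Ulk1, Atg7 and Atg16l1) and 2 were lower in each (Glb1 and Atg12). This is 31.4% of the tested members with the same sign in every line, against 32.9% of all genes.

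**Figure D5:**
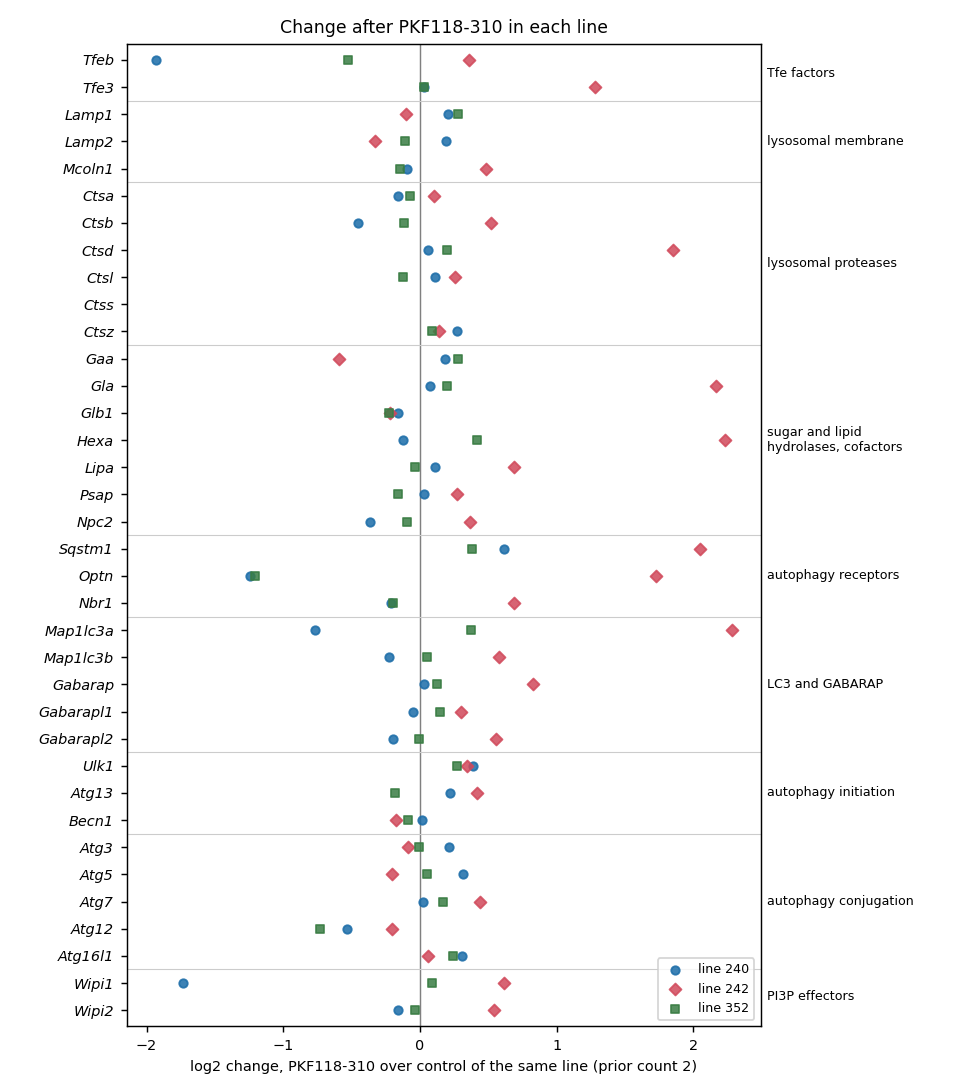
Log2 change of each tested member within line 240 (circles), line 242 (diamonds) and line 352 (squares), each treated library over its own control, with a prior count of 2. Sqstm1 lies to the right and Atg12 to the left of 0 in every line, Optn lies at -1.24 and -1.21 in lines 240 and 352 and at 1.73 in line 242, and the diamonds spread widest.

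Members also differed between the lines. Lamp2, Ctsl and Ctsz passed between the 3 lines, 3 of 35 members, where 5.32% of all genes did. This count depended on the libraries and the tool, with 1 member without line 352, 16 without line 242, 6 with DESeq2, 11 with the likelihood ratio test and 9 with no filter. The share of all genes was not computed for these settings, so their counts cannot be set against it. For Lamp2 the mean of both libraries was 538 CPM in line 242, against 165 CPM in line 352 and 128 CPM in line 240 (edgeR F test over lines, adjusted p = 0.0243), so that line 242 stood above the other two in both groups. Ctsl, a cysteine protease gene of the thymus and other tissues, had 76.2, 189 and 47.9 CPM in inhibitor-treated libraries of lines 240, 242 and 352, against 70.5, 158 and 52.3 CPM in controls, and it too was highest in line 242 (adjusted p = 0.0268). Ctsz, encoding a carboxypeptidase, had 61.9, 46.4 and 115 CPM after the inhibitor, against 51.1, 42.1 and 108 CPM in controls, and it was highest in line 352 (adjusted p = 0.0372). Ctsz overlaps Nelfcd on the opposite strand, which had 3600 counts, against 3678 for Ctsz, so its level is uncertain. Hexa was far higher in line 240 than in the other lines, with a mean of 24 CPM, against 3.26 and 3.07 CPM, without passing (adjusted p = 0.0636).

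Genes of the same pathways outside the 36 were called about as often as all genes. Of 122 further lysosome and autophagy genes in 6 lists, 114 were tested, 0 passed in the 3 lines, and 3 were higher and 9 lower in lines 240 and 352, where 5.01% and 5.92% of all genes were. Atp6v0a1, a membrane subunit of the proton pump that acidifies the lysosome, was the 1 of 16 V-ATPase genes that passed. It had 34.4, 87.2 and 22.6 CPM in inhibitor-treated libraries of lines 240, 242 and 352, against 13.1, 8.18 and 5.46 CPM in controls. The groups did not overlap, and the log2 fold change was 1.75 ± 0.23 (SE; adjusted p = 0.000797) in lines 240 and 352 and 2.22 ± 0.43 (SE; adjusted p = 0.842) in the 3 lines. Laptm5, a lysosomal membrane protein of blood cells that lowers surface T-cell receptor, was also higher (0.49 ± 0.11, SE; adjusted p = 0.0169), as was Rraga, a Rag GTPase that brings mTORC1 to the lysosome (0.44 ± 0.12, SE; adjusted p = 0.0375), and both were higher in every line.

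Of 26 other hydrolase and cofactor genes, 4 were lower and none higher in lines 240 and 352, where 5.92% of all genes were lower and 5.01% higher, and the median of the list was -0.16. Among them were Gm2a, the activator protein for ganglioside breakdown, at -0.86 ± 0.14 (SE; adjusted p = 0.00248), and Smpd1, acid sphingomyelinase, at -0.84 ± 0.14 (SE; adjusted p = 0.00348). Ostm1, a partner of the lysosomal chloride channel, and Tmem55b, a lysosomal membrane phosphatase, were lower as well, at -0.40 ± 0.10 and -0.59 ± 0.17 (SE; adjusted p = 0.0301 and 0.0412). Of 6 tested autophagy receptors outside the members, the mitophagy receptors Bnip3l and Bnip3, both known as targets of hypoxia-inducible factor, were lower in lines 240 and 352. Bnip3 had 221, 217 and 18.7 CPM in inhibitor-treated libraries of lines 240, 242 and 352, against 386, 41.5 and 109 CPM in controls, and Bnip3l had 126, 197 and 45.7 CPM, against 280.3, 85.5 and 99.7 CPM. Both were above control in line 242, as Optn was. The fitted changes in lines 240 and 352 were -1.62 ± 0.27 (SE; adjusted p = 0.00345) for Bnip3 and -1.14 ± 0.10 (SE; adjusted p = 8.08e-05) for Bnip3l. Of 25 tested genes of the autophagy core, Ulk2 alone passed, at -0.60 ± 0.13 (SE; adjusted p = 0.0108), while its relative Ulk1 stood at 0.32. None of these genes passed in the 3 lines.

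A minority of the members' promoters carry the exact letters TCACGTGA, the core of an element that Tfeb and Tfe3 bind. Apart from the plain E-box given below, looser forms of the element were not searched. The matches are shown because both factor genes had counts in every library. Tfeb had few, with 6 and 2 counts in the treated libraries of lines 240 and 242. RefSeq windows (GRCm38.p6) from 250 bases before to 50 bases after the start site were at hand for 31 members, in 37 windows, and both strands were searched. TCACGTGA, the core of the CLEAR element, was present in 13.5% of the members' windows, against 0.974% of all 32851 windows. It occurred at 4 of 15 lysosomal genes (Ctsa, Ctsd, Gla and Mcoln1) and 1 of 14 autophagy genes (Atg3). In the sequences below the core is in capitals and its first base lies at position -13 from the start site for Ctsa, which has another core at 4, -99 for Ctsd, -46 for Mcoln1, -72 for Atg3 and -228 for Gla, which has another core at -195.
Ctsa, chr2:164833740-164833772 (+ strand): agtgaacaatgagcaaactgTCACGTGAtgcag
Ctsd, chr7:142387899-142387946 (- strand): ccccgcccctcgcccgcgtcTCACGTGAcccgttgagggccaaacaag
Mcoln1, chr8:3500453-3500500 (+ strand): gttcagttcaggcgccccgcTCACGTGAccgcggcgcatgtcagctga
Atg3, chr16:45158737-45158784 (+ strand): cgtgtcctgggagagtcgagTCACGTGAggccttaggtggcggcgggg
Gla, chrX:134601206-134601253 (- strand): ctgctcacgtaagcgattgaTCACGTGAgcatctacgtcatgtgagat
None of these 5 genes passed in either fit, and in lines 240 and 352 their log2 fold changes ran from -0.13 for Mcoln1 to 0.15 for Gla. In the 3 lines Gla stood at 0.71 ± 0.52 and Ctsd at 0.63 ± 0.39 (SE), with changes of 2.16 and 1.85 in line 242, and Ctsa, Mcoln1 and Atg3 at -0.06, 0.02 and 0.05. CACGTG, the plain E-box contained in that core, was present in 29.7% of the members' windows and 7.15% of all windows. Lamp1 has 4 of them in the 67 bases before its start site, here in capitals.
Lamp1, chr8:13159094-13159160 (+ strand): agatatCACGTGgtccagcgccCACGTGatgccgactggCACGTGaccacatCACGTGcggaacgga
Lamp1 did not pass in either fit. It had 163, 156 and 176 CPM in inhibitor-treated libraries of lines 240, 242 and 352, against 142, 168 and 145 CPM in their controls. Lamp1 was thus higher in lines 240 and 352 and lower in line 242, with log2 changes of 0.20, 0.28 and -0.10. The fitted log2 fold change in lines 240 and 352 was 0.24 ± 0.10 (SE; edgeR's quasi-likelihood test, adjusted p = 0.162). Over the 3 lines it was 0.14 ± 0.15 (SE; same test, adjusted p = 0.893).

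The receptor genes Sqstm1 and Optn had neither an E-box nor CTTTGA, the core letters of the Tcf/Lef site, nor TGACNNNGC, the core of the antioxidant response element, in their windows. CTTTGA occurred in 6 of 37 windows of the members and 5257 of all 32851 windows, nearly the same share, at 5 lysosomal genes and 1 autophagy gene (Ctsa, Lamp1, Lamp2, Lipa, Npc2 and Gabarapl1), and TGACNNNGC in 16.2% of the members' windows and 12.4% of all. GGGCGG, the GC box, occurred in 70.3% of the members' windows and 35.7% of all. The 250 bases before the start sites of the receptor genes are printed with GC boxes on either strand in capitals, since they belong to the pair of receptors that moved in opposite directions in lines 240 and 352. In these 250 bases Sqstm1 has 3 GC boxes and a GC content of 63.2%, and Optn has 1 and 50%. The window of Optn holds another GC box after the start site, at 32.
Sqstm1, chr11:50210821-50211070 (- strand): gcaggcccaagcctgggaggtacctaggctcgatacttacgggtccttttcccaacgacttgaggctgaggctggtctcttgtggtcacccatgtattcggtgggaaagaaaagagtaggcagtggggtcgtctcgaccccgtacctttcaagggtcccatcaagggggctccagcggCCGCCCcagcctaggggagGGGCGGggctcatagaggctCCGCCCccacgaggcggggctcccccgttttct
Optn, chr2:5064118-5064367 (- strand): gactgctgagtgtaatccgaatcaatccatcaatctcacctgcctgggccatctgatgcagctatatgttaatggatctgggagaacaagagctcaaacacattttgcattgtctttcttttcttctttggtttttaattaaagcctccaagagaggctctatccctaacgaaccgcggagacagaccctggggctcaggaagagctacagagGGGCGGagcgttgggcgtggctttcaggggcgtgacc
A match to these letters is a description of the sequence and shows no binding.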

How the data were processed

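RNA was extracted from T-ALL cells of lines 240, 242 and 352, inhibitor-treated and control, and sequenced from poly(A)-selected stranded libraries. The authors deposited raw gene counts, 1 file per lane. Among tools, the submitters' processing notes list HTSeq, HISAT2 and edgeR, with the build mm10, while the study's methods name TopHat for alignment. No source used here gives versions, the handling of reads with several matches or the strand setting. The labels call the 2 lanes of a library technical replicates, so their counts were summed to 6 libraries of 604984 to 13766638 counts. A figure legend of the study speaks instead of separate control and treated cultures of each line. If the files were such cultures, the number of samples and every test would differ. Per degree of freedom, chi-square between lanes was 0.982 to 1.02 in lines 240 and 242 and 2.01 to 2.05 in line 352. The limit that a count of 0 allows, 3 counts, corresponds to 0.218 to 4.96 CPM, for counting error only.

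The analysis used edgeR 4.0.16 (R 4.3.3) with filterByExpr by group, TMM scaling, and the quasi-likelihood F test with the line as a block, two-sided, Benjamini-Hochberg adjusted over all genes tested. The 10331 genes kept in the 3 lines held 99.0% of counts. A second fit left out line 242, a choice made because its treated library is shallow and rich in mitochondrial transcripts. That choice was made with earlier results of these data known, so this fit is a second reading and not independent of them. CPM values are TMM-scaled, and marker sums and limits are per total counts. SEs were derived from each fold change and the square root of its F value. Changes within a line are log2 ratios with a prior count of 2 and have no test. The control and treated library of a line come from the same mouse tumor line, which is the basis of the pairing, and they deviated together from their group means (correlations across genes of 0.67, 0.30 and 0.79). Values per library are given for members past the threshold in either fit, the highest member of each of 9 roles, the 5 smallest p in the 3-line fit and members that differed between lines. The other lists give up to 3 genes each, and 1 gene taken by this rule is not reported here. Members and lists were chosen with earlier results of these data known.

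Alternatives were no block, DESeq2 1.42.0 and its size factors, library totals, the likelihood ratio test, no filter or at least 5 CPM in every library, single lanes, limma 3.58.1 voom with sample weights, and each line left out. Scripts were tested on simulated data.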

Additional observations from a re-analysis of the deposited data

Results flagged for a closer look

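Some genes past the threshold in lines 240 and 352 moved the opposite way in line 242. The fitted log2 fold change of the 2 lines was negative for each of them, while the change within line 242 was 1.73 for Optn, 2.38 for Bnip3, 1.61 for Smpd1, 1.199 for Bnip3l, 0.10 for Ulk2 and 0.0317 for Gm2a. The values for Ulk2 and Gm2a are close to 0. The difference between lines was not tested, since each line has 1 library per group. The treated library of line 242 held 15 counts of Optn, 117 of Bnip3, 34 of Smpd1, 106 of Bnip3l, 42 of Ulk2 and 22 of Gm2a, and 11.8% of its counts were mitochondrial. Groups of 3 libraries were too small for a search for outlying samples.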

How the results depend on the processing

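The calls in lines 240 and 352 (1 member higher, 2 lower) held with DESeq2 size factors, library totals, the likelihood ratio test, no filter, the 5 CPM filter and lane 1. Without the replicate block 0 were higher and 0 lower (adjusted p = 0.9997 for Sqstm1, Optn and Atg12), and DESeq2 likewise gave 0 and 0, with adjusted p of 0.101, 0.109 and 0.0673. Lane 2 alone gave 1 lower, as Optn reached 0.0562. Leaving out a line there leaves 1 line and no test. The autophagy median of lines 240 and 352, 0.01, was 0.0690 in lane 1 and -0.0456 in lane 2. In the 3 lines, voom with sample weights called 2 members lower (Optn, adjusted p = 0.0248, and Atg12, 0.0249). Leaving out each line gave 0 to 1 member higher and 0 to 2 lower, the calls coming without line 242. Members that differed between lines were 3, but 6 with DESeq2, 11 with the likelihood ratio test, 9 with no filter, 16 without line 242 and 1 without line 352. For these alternatives the share of all genes that differed between lines was not computed. The paired block in the 3 lines changed no call: without it 0 members were higher and 0 lower, and the lysosomal median was 0.09 and the autophagy median 0.11. DESeq2 called 35 genes higher and 10 lower in the 3 lines, and the likelihood ratio test 56 and 29, where edgeR's quasi-likelihood test called none. No filter moved the median of all genes to 0.51 in the 3 lines and 0.17 in lines 240 and 352, while the lysosomal median was -0.0175 and the autophagy median 0.0202 in the 3 lines, and 0.0097 and -0.0019 in lines 240 and 352, so that the members lay below all genes there.

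In 21 values a member changed sign relative to a fit that had not called it. All started near 0 except Optn (-0.45 in the 3 lines). In the 3 lines, Ctsb was 0.0496 with no block and 0.0299 in lane 1, and leaving out each line gave -0.27 to 0.15, with 0.0051 without line 352. Leaving out each line gave -1.26 to 0.10 for Optn (0.10 without line 240 and without line 352), -0.26 to 0.0181 for Lamp2, -0.0250 to 0.16 for Ctsl, -0.0709 to 0.13 for Psap and -0.0898 to 0.19 for Wipi2, with the sign changing without line 242 for these last 4. With voom, Lamp2 was 0.00078, Ctsl -0.0102, Psap -0.0157 and Wipi2 -0.0594. With no filter Ctsl was -0.0118 and Psap -0.0464. In lane 1 Becn1 was 0.0184 and Wipi2 -0.0241. In lines 240 and 352, Tfe3 was -0.0880 in lane 1, Lamp2 -0.0080 in lane 2 and Ctsl 0.0099 with no block. The mean log2 change of the lysosomal to autophagy ratio ran from -0.29 to -0.08 when each line was left out, with -0.08 reached without line 242. The cause of these differences was not tested.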
